A study of Mus musculus with 12 samples.

Results

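Thymus of p53-/- mice was compared with thymus of p66-/- mice, 1 array each, and 230 of 18193 measured genes differed by 2-fold or more with a mean signal of 7 or more on the log2 scale over both arrays. A difference of 1 on this scale is 2-fold, and every difference below is p53KO minus p66KO. Of the 9498 genes that passed the signal minimum, 79 (0.832%) were higher in p53KO thymus and 151 (1.59%) were lower. A further 33 higher and 64 lower genes differed by 2-fold at a mean signal under 7 and were not members. Each array held RNA pooled from 4 mice of the Sv/129 strain aged 2 months, and the full set was 12 arrays, 1 for each of thymus, heart, lung and liver in wild type (WT), p66-/- and p53-/- mice. The labels give no treatment. Since there was 1 array per tissue and genotype, the differences in thymus have no replicate check and carry no p. The comparison of the knock-outs leaves out the WT thymus array, on which 26 measured salivary gland genes averaged 12.71, against 5.65 in p66KO and 5.67 in p53KO thymus.

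p53 is a transcription factor that halts the cell cycle or starts apoptosis after stress, and p66Shc is the longest product of Shc1, an adaptor protein linked to mitochondrial oxidation and cell death. The thymus is the organ in which T cells mature, and most of its cells are dividing or dying thymocytes held by a net of cortical and medullary epithelium. It lies just above the heart, close to the airways, to fat and to the muscles of the neck. The knock-outs are of the whole animal. The p66 deletion is specific to that isoform, so Shc1 RNA for the shorter isoforms remains. Shc1 read 9.09 on the WT, 9.20 on the p66KO and 8.82 on the p53KO thymus array. In the other tissues it lay between 8.57 and 9.83 in all 9 arrays, and the values do not set the p66KO arrays below the others. Which isoforms its probe set reads is not given in the sources used here, so this does not check the label.

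Both thymus arrays carried the markers of the labelled tissue. Rag1, which cuts the T cell receptor genes, read 12.59 in p66KO and 13.13 in p53KO, Dntt read 12.52 and 12.78, and Cd3d read 12.28 and 12.27. Psmb11, the cortical epithelial proteasome subunit, read 8.74 and 8.43. All 22 measured thymocyte genes passed the signal minimum, none differed by 2-fold, and their median difference was 0.25, against -0.02 over all genes measured and -0.11 over those past the minimum.

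The pair correlated at r = 0.9815 over all probe sets, and other measures set them apart. The 3 probe sets for 18S ribosomal RNA averaged 5.97 in p66KO and 10.30 in p53KO thymus, with 10.86 in WT. The 18 hybridization spikes were higher in p53KO by 0.84 to 1.63, and the 24 poly-A spikes were lower, with differences from -1.83 to -0.30. The gap between the 3' and 5' control probe sets of Gapdh was 0.59 in p66KO and 0.24 in p53KO. Eif2s3y, a Y-linked gene, read 8.39 and 7.39, and Xist read 7.36 and 7.38. The part of these in the differences below was not tested.

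**Figure D1:**
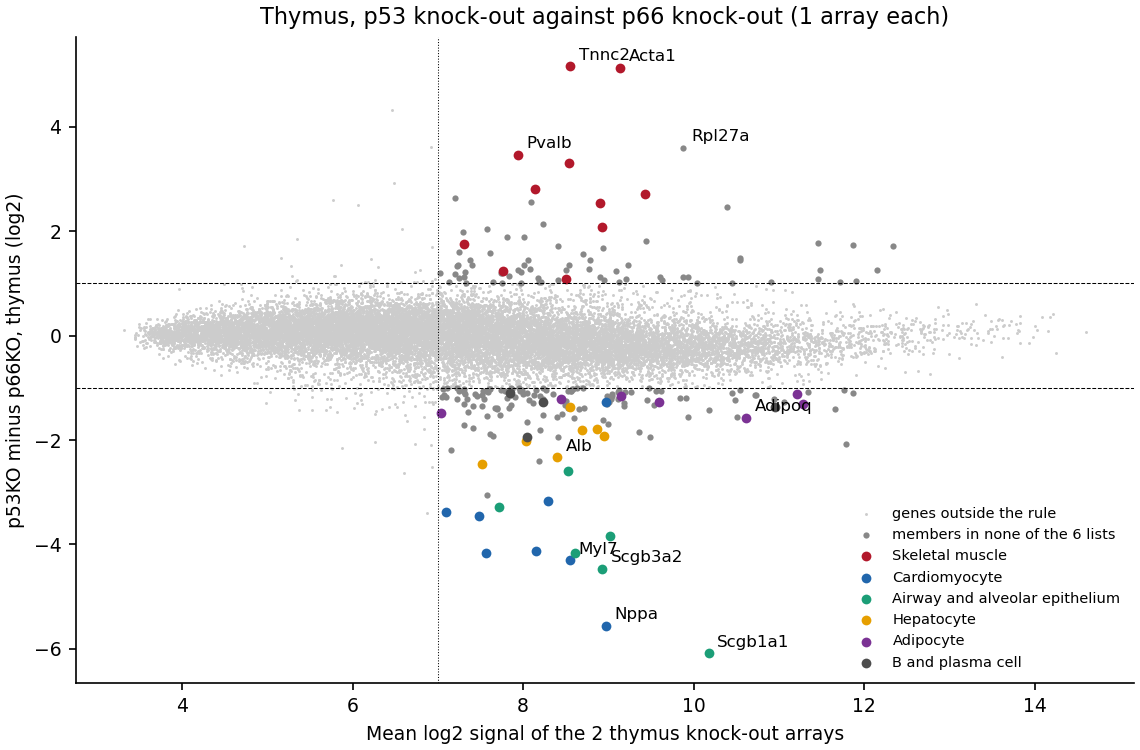
Difference between the p53KO and p66KO thymus arrays (vertical axis, log2) against their mean signal (horizontal axis, log2), 1 point per gene for 18193 genes. Dashed lines mark 2-fold and the dotted line the minimum of 7; skeletal muscle genes stand at the top, and heart muscle and airway genes at the bottom, from -6.09 for Scgb1a1 to 5.16 for Tnnc2.

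The 2 extremes held muscle genes of different kinds. To set genes of both ends beside each other, the 250 bases before the start of Acta1, which was higher in p53KO thymus, are printed with those of Myl7 and Actc1, which were lower. The sequences are RefSeq's for GRCm38.p6, 5′ to 3′ on the strand of the gene. Acta1 lies on the minus strand at chr8:123894776-123895025, Myl7 on the minus strand at chr11:5898783-5899032 and Actc1 on the minus strand at chr2:114052876-114053125. Capitals mark the CArG box, the motif bound by serum response factor, which reads alike on both strands.
Acta1: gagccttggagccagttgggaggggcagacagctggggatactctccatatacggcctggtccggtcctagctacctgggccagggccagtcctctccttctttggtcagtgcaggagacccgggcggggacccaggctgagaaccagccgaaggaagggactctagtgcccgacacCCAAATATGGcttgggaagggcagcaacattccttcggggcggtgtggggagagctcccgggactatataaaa
Myl7: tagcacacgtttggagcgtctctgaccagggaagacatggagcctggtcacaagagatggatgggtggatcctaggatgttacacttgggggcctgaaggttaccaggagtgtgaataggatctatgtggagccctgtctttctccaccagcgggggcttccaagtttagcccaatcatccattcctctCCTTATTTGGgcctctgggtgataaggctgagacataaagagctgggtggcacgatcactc
Actc1: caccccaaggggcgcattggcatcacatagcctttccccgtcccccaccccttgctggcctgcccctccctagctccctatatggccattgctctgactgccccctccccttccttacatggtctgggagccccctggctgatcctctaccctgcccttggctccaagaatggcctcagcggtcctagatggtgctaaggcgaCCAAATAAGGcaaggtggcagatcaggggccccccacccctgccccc
The box lay 73 to 64 bases before the start of Acta1, 61 to 52 before that of Myl7 and 47 to 38 before that of Actc1. These 3 genes are shown because they carry it. The box was present in 1.47% of 32851 mouse promoters of this length and in 1.20% of the 9871 of genes past the signal minimum. Among the members it was in 1 of 78 promoters of higher genes (1.28%), that of Acta1, and in 5 of 157 of lower genes (3.18%), those of Actc1, Myl7, Myl9, Cbr2 and Myadm. The share among higher members was thus near that of all promoters, and no test was made. The E-box CANNTG, searched the same way, was in 66.2% of all the promoters, in 57.4% of those of genes past the signal minimum, and in 61.5% and 65.0% of those of the higher and lower members.

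Skeletal muscle genes led the higher side. Of 37 measured genes of this list, 34 lay above 0, beside 8698 of all 18193, and the median difference was 1.22. Of the 15 past the signal minimum, 11 were 2-fold or more higher and 0 lower. That minimum is a mean over the 2 arrays compared, so a gene can pass it through 1 high array. At any signal, 21 of the 37 were 2-fold or more higher and 0 lower, beside 112 higher and 215 lower of all 18193. Tnnc2, the calcium sensor of fast muscle, read 6.51 in WT, 5.97 in p66KO and 11.14 in p53KO thymus, a difference of 5.16 or 35.8-fold. Acta1, skeletal actin, read 7.24, 6.57 and 11.71, a difference of 5.13. Pvalb, the calcium buffer of fast fibres, read 6.73, 6.20 and 9.67. The p53KO array was the high one in all 3, and the WT array lay near the p66KO array. Myl1 and Mylpf, light chains of fast myosin, differed by 3.31 and 2.54. Ckm, muscle creatine kinase, differed by 2.72, and Atp2a1, the calcium pump of fast fibres, by 2.80. Tnni2, Pygm, Casq1 and Eno3 completed the list's members at 2.08, 1.75, 1.24 and 1.09. For 10 of the 11, the WT value was nearer p66KO than p53KO. This was so for 58.2% of all higher members and 37.5% of all genes past the minimum. The WT array here is the one with the salivary gland genes. In bulk tissue, fewer cells of a type and less RNA per cell cannot be told apart.

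In lung the muscle genes went the other way, while in liver they leaned the same way as in thymus by less. The 11 members had a median difference of -0.88 in lung, 0.58 in liver and 0.25 in heart, and their range in lung was -2.33 to 0.08. Over the whole list the medians were -0.431 in lung, 0.435 in liver and 0.039 in heart. Over all genes measured they were 0.056, -0.021 and 0.026, so in heart the list lay near all genes. Tnnc2 read 10.73 in WT, 10.94 in p66KO and 8.61 in p53KO lung. Mylpf read 9.10, 9.72 and 7.76 there. The p53KO lung was the low one, opposite to thymus. In liver, Acta1 read 9.42 in WT, 7.55 in p66KO and 9.27 in p53KO, Tnnc2 read 8.63, 7.05 and 8.49, and Mylpf read 7.20, 6.43 and 7.66. These were the 3 higher members that were also 2-fold higher in p53KO liver, and there the p66KO array was the low one of the 3. In heart, the range of the 11 was -0.18 to 0.89.

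Heart muscle and airway genes held the 12 lowest differences. Of 29 measured heart muscle genes, 17 passed the minimum, of which 8 were 2-fold or more lower and 0 higher. At any signal, 11 of the 29 were 2-fold or more lower and 0 higher, and the median of the whole list was -0.33. Nppa, the atrial natriuretic peptide, read 9.21 in WT, 11.75 in p66KO and 6.20 in p53KO thymus, a difference of -5.55 or 47.0-fold. Myl7, the atrial light chain, read 8.62, 10.69 and 6.40. Sln, which restrains the calcium pump of the atrium, read 8.57, 9.64 and 5.48. The p66KO array was high and the p53KO array low for these, with WT above p53KO. Myl4, a further atrial light chain, differed by -4.12, but a second probe set of this gene read 7.39 in p66KO and 7.63 in p53KO. Myh6, Tnnt2 and Actc1, parts of the sarcomere, differed by -3.45, -3.38 and -3.17, and Cox7a1, the muscle form of a cytochrome oxidase subunit, by -1.26. All 8 had WT values nearer p66KO, beside 58.3% of all lower members and 37.5% of all genes past the minimum. In heart itself the 8 differed by 0.00 to 0.47.

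Airway genes held the lowest value of all. Of 15 measured genes, 12 passed the minimum and 6 of these were 2-fold or more lower. At any signal, 7 of the 15 were 2-fold or more lower and 0 higher. Scgb1a1, the secretoglobin of club cells, read 11.87 in WT, 13.22 in p66KO and 7.13 in p53KO thymus, a difference of -6.09 or 68.0-fold. Scgb3a2 read 10.36, 11.16 and 6.70, and Cyp2f2, an airway cytochrome P450, read 11.32, 10.69 and 6.53. For these, the p53KO array alone was low. Sftpc, the surfactant protein of alveolar cells, read 6.34 in WT, 9.36 in p66KO and 6.08 in p53KO, so that here the p66KO array alone was high. Scgb3a1 and Bpifa1, secreted airway proteins, differed by -3.83 and -2.60. In lung, where Scgb1a1 read 14.94, 15.27 and 15.41, the list's median difference was -0.05, and it was 0.015 in heart and 0.024 in liver. Single members did differ there. In heart the 6 members ran from -2.17 to 0.65, with Scgb1a1 lowest and Cyp2f2 at -1.65. In lung they ran from -1.52, for Bpifa1, to 0.14, and in liver from -0.21 to 0.45. Cyp2f2 is not particular to airway in these data. It read 13.58 in WT, 13.69 in p66KO and 13.69 in p53KO liver, beside 14.25, 14.22 and 14.17 in lung.

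**Figure D2:**
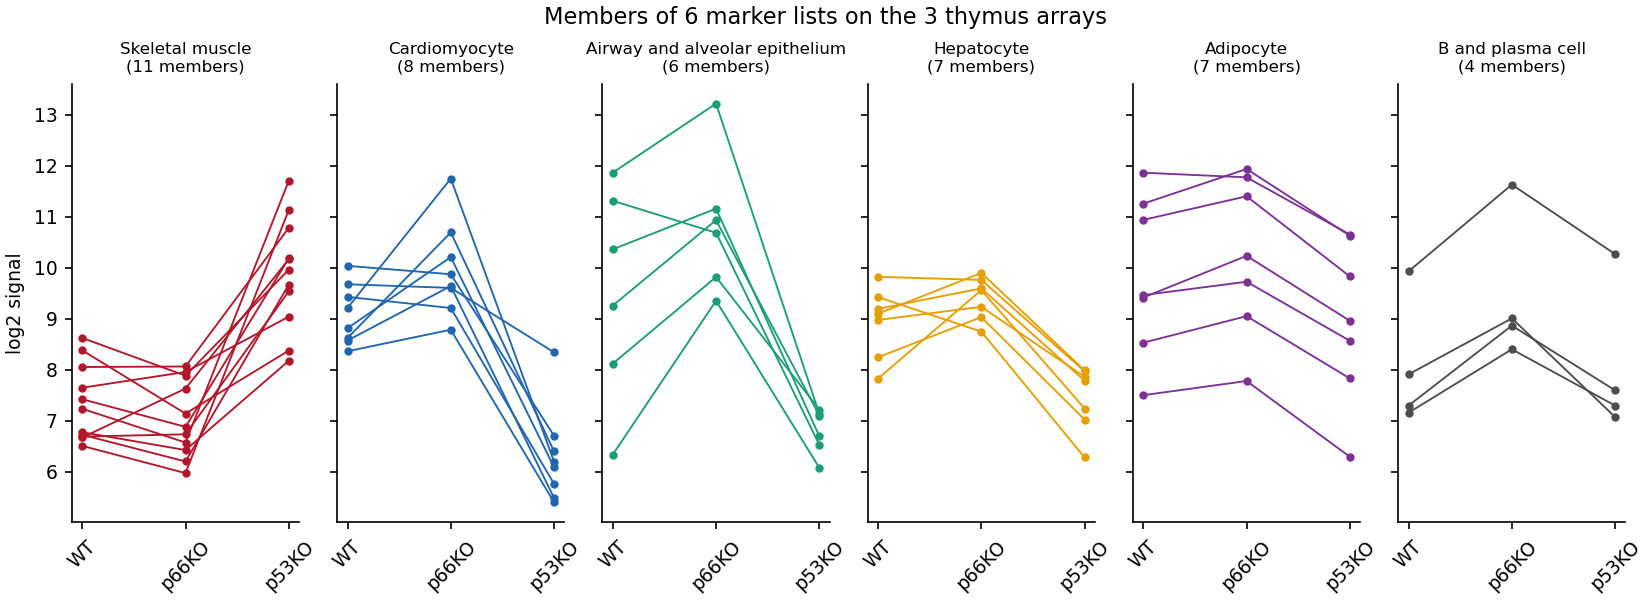
Log2 signal of the members of 6 marker lists on the WT, p66KO and p53KO thymus arrays, 1 line per gene. Skeletal muscle members lie between 8.18 and 11.71 in p53KO and between 5.97 and 8.06 in p66KO; airway members lie between 9.36 and 13.22 in p66KO and between 6.08 and 7.22 in p53KO.

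Liver-type genes as a list were lower in p53KO thymus, and also in p53KO heart and lung, though not every member was. Of 26 measured hepatocyte genes the median difference was -0.78, and of the 10 past the minimum 7 were 2-fold or more lower. At any signal, 10 of the 26 were 2-fold or more lower and 0 higher. Ttr, a thyroid hormone carrier, read 9.43 in WT, 8.75 in p66KO and 6.28 in p53KO thymus. It read 8.83, 8.16 and 5.92 in heart, and 12.55, 11.87 and 7.81 in lung. A second Ttr set past the minimum read 8.65, 8.22 and 7.88 in thymus, short of 2-fold, and dimmer sets differed by -2.66 and -1.82. Alb, serum albumin, read 7.83, 9.56 and 7.24 in thymus and 13.13, 12.30 and 8.79 in lung. In each of these tissues the p53KO array was the lowest of the 3. In liver, Alb read 14.79, 14.74 and 14.71, and the list's median there was -0.04, against -2.30 in lung and -0.51 in heart. Serpina1b and Serpina1c, protease inhibitors of serum, differed by -2.01 and -1.79 in thymus, and since they are near-identical copies their probe sets may share signal. Cyp2e1, Hp and Rbp4 differed by -1.91, -1.81 and -1.37 in thymus. In heart they differed by -0.78, 0.17 and -0.01, and in lung by -1.40, -0.01 and -0.70, so Hp was lower in thymus alone.

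Fat and connective tissue genes formed a further lower group, with smaller differences. Of 20 adipocyte genes, 19 lay below 0 and 1 above, while 8698 of all 18193 genes lay above 0. The list's median was -0.71, and 7 of the 16 past the minimum were 2-fold or more lower. Adipoq, the adipocyte hormone adiponectin, read 10.94 in WT, 11.40 in p66KO and 9.83 in p53KO. Cidec, a lipid droplet protein, read 7.50, 7.78 and 6.29. Thrsp, Dgat2, Cd36, Pck1 and Lpl, which serve fat synthesis, uptake and storage, differed by -1.31, -1.27, -1.22, -1.16 and -1.12. On these probe sets the p53KO array was the low one for all 7. A further Thrsp set past the minimum read 7.44 in p66KO and 7.85 in p53KO, the other way, and another differed by -1.67. The median difference of the 7 was 0.16 in heart, -0.33 in lung and 0.34 in liver. Among 13 brown fat genes the median was -0.63, Cidea differed by -1.43, and Ucp1, the heat-making uncoupler, read 12.21, 11.70 and 10.86, short of 2-fold. Among 28 smooth muscle and fibroblast genes the median was -0.40, with Col3a1, Myl9, Gsn and Dpt 2-fold or more lower at -1.56, -1.54, -1.27 and -1.25. Me1, which supplies NADPH to fat synthesis, was the only 1 of 18 sterol and fatty acid synthesis genes past the minimum to reach 2-fold, at -1.19.

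The B cell members were higher in p66KO than on both other arrays, in thymus and also in lung. Of 19 measured genes, 9 passed the minimum and 4 were 2-fold or more lower in p53KO, with a list median of -0.55. At any signal, 6 of the 19 were 2-fold or more lower and 0 higher. Ms4a1, which encodes CD20, read 7.91 in WT, 9.01 in p66KO and 7.07 in p53KO. Jchain, which joins secreted antibody, read 9.93, 11.63 and 10.27. Cd79b and Cd79a, the signalling chains of the B cell receptor, differed by -1.27 and -1.10. In lung, Ms4a1 read 7.35 in WT, 9.01 in p66KO and 7.77 in p53KO, and Jchain read 8.80, 11.36 and 8.48. The median difference of the 4 was -1.09 in lung, -0.24 in heart and 0.11 in liver. In thymus, WT lay nearer p53KO for all 4. It lay nearer p66KO for 58.3% of all lower members and 37.5% of all genes past the minimum. The thymocyte and G2-M lists were also lower on the WT array, which carries the salivary gland genes, with means of 9.64 and 7.01 in WT, 10.89 and 8.90 in p66KO and 11.05 and 8.99 in p53KO, and the part of this in the WT values was not tested. The antibody gene Igha, named after its value was seen, read 10.66, 12.83 and 10.75 in thymus and 10.07, 12.09 and 9.05 in lung. The antibody probe set of Igk went the other way, with 8.06 in p66KO and 9.52 in p53KO, while a second Igk set read 9.19 and 8.17.

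None of the genes on the list of p53-activated targets reached 2-fold in either direction, and targets outside that list were not examined. Of 39 measured targets, 31 passed the minimum, 22 of those lay below 0, and the median of the 39 was -0.13. The 31 had a median of -0.255, against -0.113 over all genes past the minimum, which thus leaned lower as a whole. Of the 5047 probe sets past the minimum that were not chosen for a gene, 59.5% lay below 0 in thymus. Rrm2b, a ribonucleotide reductase subunit, read 7.70 in WT, 8.43 in p66KO and 7.50 in p53KO thymus, a difference of -0.93. Perp, a membrane protein of p53-dependent apoptosis, read 10.42, 9.32 and 8.54. Ccng1, a cyclin, read 10.68, 10.66 and 9.91. For these the p53KO array was the lowest of the 3. Ei24, Phlda3, Zmat3 and Bbc3 differed by -0.75, -0.74, -0.66 and -0.65, and Cdkn1a, the cell cycle inhibitor p21, read 8.60, 8.81 and 8.42. Mdm2, the ligase that degrades p53, read 8.46, 9.06 and 9.28, the other way. The values of the other tissues were mixed, with list medians of -0.03 in heart, -0.06 in lung and -0.06 in liver. Cdkn1a differed by -0.18 in heart, -0.25 in lung and -1.01 in liver, and Perp by -0.06, -1.10 and -0.25. Gadd45a, named after its values were seen, differed by 0.86, -0.40 and 0.64.

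**Figure D3:**
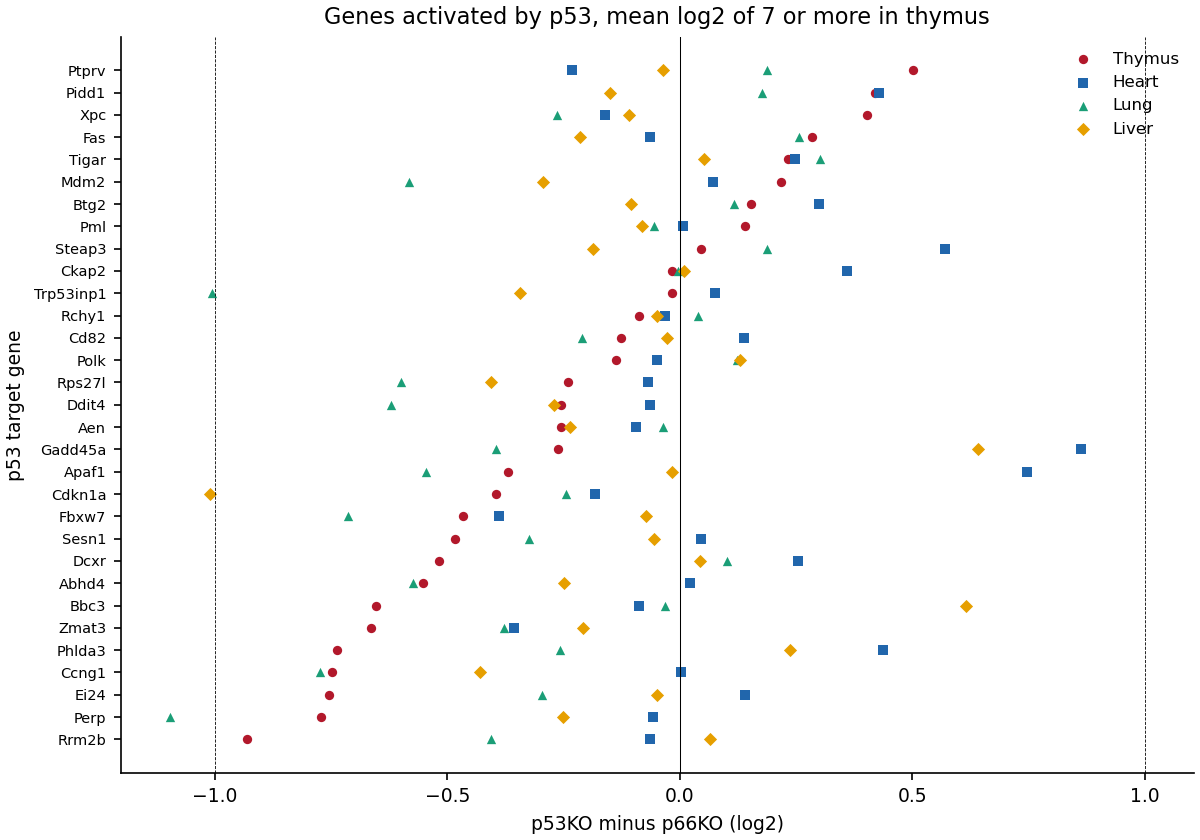
Difference p53KO minus p66KO (horizontal axis, log2) of the 31 p53 targets past the signal minimum in thymus, 1 row per gene and 1 symbol per tissue, 1 array per genotype. In thymus (red circles) the genes run from -0.93 for Rrm2b to 0.50 for Ptprv, all inside the dashed lines of 2-fold.

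The cell cycle genes were alike on the knock-out arrays. The 53 measured G2-M genes averaged 7.01 in WT, 8.90 in p66KO and 8.99 in p53KO, and their median difference was 0.10. The WT array is the one with the salivary gland genes. Thymocyte genes were lower on it too, at 9.64 against 10.89 and 11.05, and the part of this in the WT mean was not tested. Aurkb, the kinase of chromosome segregation, was the 1 gene of 46 past the minimum to reach 2-fold, and it read 5.42, 7.36 and 8.58. Kif2c, Tpx2 and Ttk, which act on the spindle, differed by 0.83, 0.67 and 0.60. The 41 S phase genes had a median of 0.01, with Ccne2, Rfc4, Hells and Gins1 at -0.93, -0.89, -0.85 and -0.64. No replicate gives the size of a chance difference here, so nearness of the medians is a description.

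Genes of the thymus itself made few members. Ccl25, the chemokine that cortical epithelium uses to draw in T cell precursors, read 9.64 in WT, 12.28 in p66KO and 11.24 in p53KO, and was the 1 of 11 cortical genes past the minimum to reach 2-fold. Cxcl12, Pax1 and Krt18 differed by -0.74, -0.46 and -0.40 and the list's median was -0.31. Of the medullary genes, Krt14, Cldn3, Aire and Cldn4 differed by -0.47, 0.36, -0.33 and 0.19. Among thymocyte genes, Arpp21, Zap70, Notch1 and Ptcra differed by 0.87, 0.69, 0.62 and -0.56. Gzma, a killer cell protease, read 8.14, 9.94 and 10.95 and stood just inside the threshold. C1qb, a complement protein of macrophages, read 9.86, 11.10 and 9.87, while its further sets past the minimum differed by -0.58 and -0.74.

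**Figure D4:**
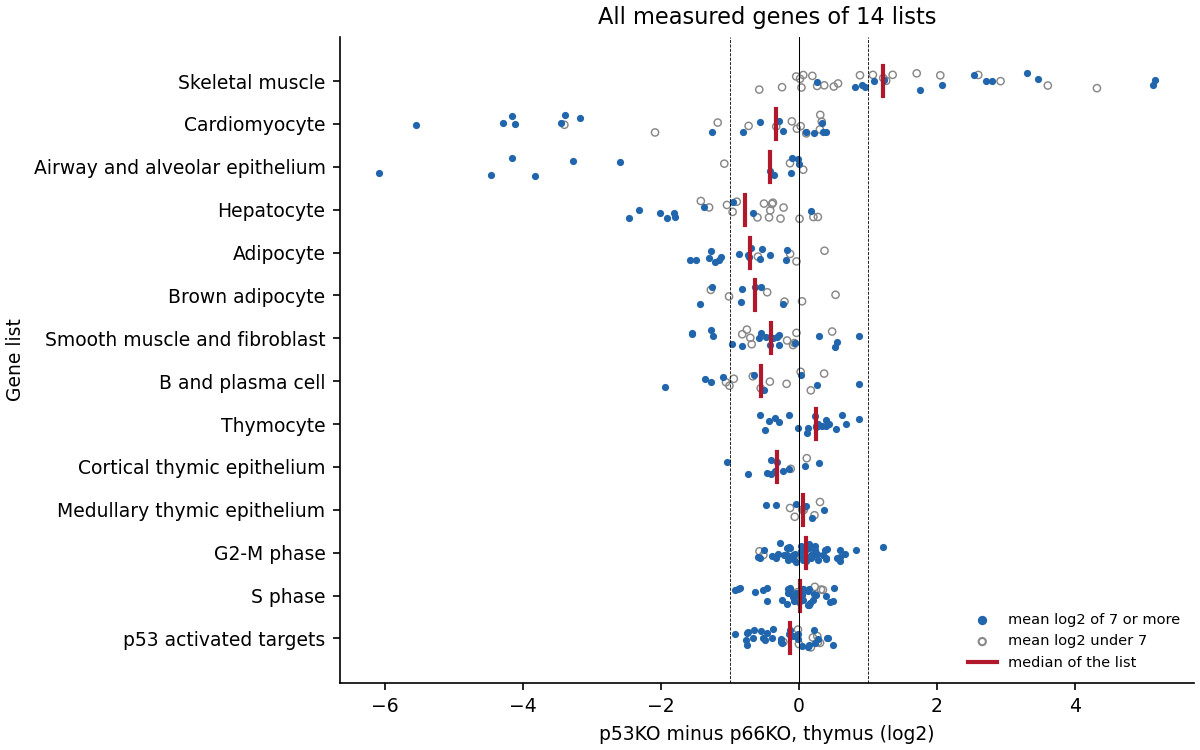
Difference p53KO minus p66KO in thymus (horizontal axis, log2) for every measured gene of 14 lists, filled points for genes with a mean signal of 7 or more and open points for dimmer ones, with the list median as a red bar. The skeletal muscle median is 1.22 and the hepatocyte median -0.78, while the G2-M, S phase and p53 target medians are 0.10, 0.01 and -0.13.

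A second group of higher members was shared with lung. Of the 79 higher members, 14 (17.7%) were also 2-fold or more higher in p53KO lung, where 25 of the 9498 genes (0.263%) were. Rpl27a, a ribosomal protein, read 11.12 in WT, 8.08 in p66KO and 11.68 in p53KO thymus. In lung it read 8.95, 8.69 and 10.94, and in heart 11.16, 9.32 and 9.98. In thymus the p66KO array was the low one, while in lung the p53KO array was the high one. No other of 42 ribosomal protein genes past the minimum reached 2-fold, and the next, Rpl37 and Rpl39, differed by 0.87 and 0.69. Rpf2, a ribosome assembly factor, read 11.44, 9.15 and 11.62 in thymus and 9.47, 9.75 and 11.33 in lung. The 2 further Rpf2 sets past the minimum went the other way in thymus, by -0.89 and -0.25. Upf1, which acts in RNA decay, differed by 2.64 in thymus and 1.56 in lung, and Agbl5, a carboxypeptidase, by 2.56 and 1.17. The others, named after their values were seen, were Klf13, Myh9, Foxo3, Pacc1, Srrd, Ptcd1, Nipsnap2, Snx22, Spout1 and Hbb-b2, whose thymus differences ran from 1.06 to 2.04. Further sets past the minimum were uneven for these genes. A second Hbb-b2 set read 8.54 in p66KO and 6.88 in p53KO thymus, the other way, the second set of Foxo3 differed by 1.81, and the 3 of Myh9 by -0.01, 0.22 and 2.05. Those of Klf13, Srrd and Ptcd1 differed by 0.50, 0.05 and -0.01, and the 2 of Agbl5 by 0.32 and 0.07.

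The 18S ribosomal RNA probe sets followed the same tissues. They averaged 5.97 in p66KO and 10.30 in p53KO thymus and 5.94 and 9.79 in lung, while in heart and liver they differed by 0.39 and 0.38. In heart 0 of the 79 higher members were 2-fold higher (all genes 0.179%) and in liver 3 were (all genes 0.105%). Whether 18S signal has a part in these members was not tested. Further probe sets of the same genes differed in how far they moved with the members. Of 38 further probe sets past the minimum for 26 of the higher members, 4 were 2-fold higher and the median difference was 0.04. Of 75 for 48 of the lower members, 19 were 2-fold lower and the median was -0.72. Over all 5047 such further probe sets, 0.951% were 2-fold higher and 2.18% lower.

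The lower members were shared with lung as well. There 40 of the 151 (26.5%) were 2-fold or more lower, beside 359 of 9498 genes (3.78%), and 135 (89.4%) lay below 0, beside 59.8% of all genes past the minimum. In heart 9 were 2-fold lower (all genes 0.19%) and in liver 2 (all genes 0.0737%). The 7 that were 2-fold lower in a pair of other tissues were Alb, Ttr, Serpina1c, Jchain and Malat1 in heart and lung, and Hspa1b and Pdk4 in lung and liver. Malat1, a nuclear RNA, read 8.98 in WT, 10.51 in p66KO and 9.31 in p53KO thymus and 11.44, 11.06 and 9.22 in lung, and its other 4 probe sets past the minimum ran from -1.13 to 0.37 in thymus. Hspa1b, an inducible heat shock chaperone, read 10.06, 8.84 and 7.62 in thymus and 12.22, 9.81 and 7.86 in lung. Its further sets past the minimum differed by -0.86 and -0.98 in thymus, short of 2-fold. On the chosen Hspa1b set the WT arrays were the highest and the p53KO arrays the lowest in all 4 tissues. Pdk4, which spares glucose in fasting, read 9.96, 9.83 and 8.54 in thymus, 9.44, 9.71 and 8.64 in lung, and 7.63, 7.31 and 5.98 in liver. No member was 2-fold different the same way in all 4 tissues.

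**Figure D5:**
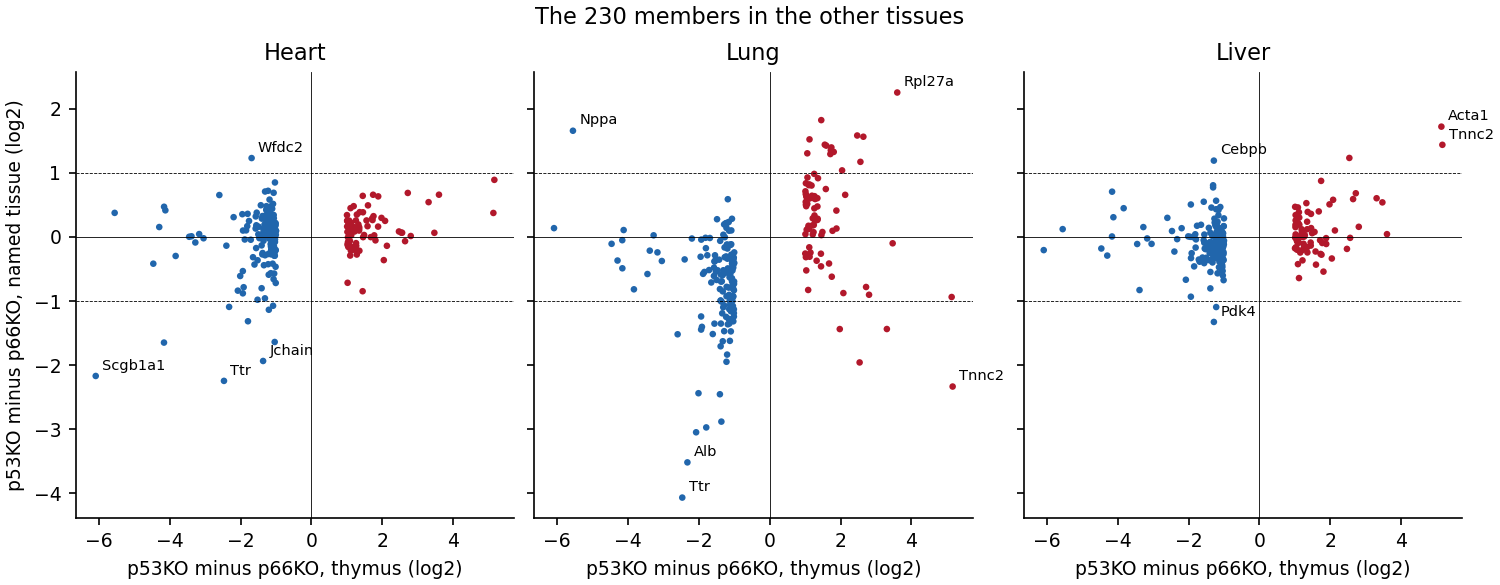
Difference p53KO minus p66KO of the 230 members in heart, lung and liver (vertical axes, log2) against thymus (horizontal axis, log2), red for members higher in thymus and blue for lower, with 2-fold dashed. In lung, 14 red points lie above the upper line and 40 blue points below the lower line; Tnnc2 at -2.33 and Nppa at 1.66 lie on the opposite side.

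The tissues outside thymus also gave the one test that the design allows. limma was fitted to the 9 arrays of heart, lung and liver with tissue as a block, which the choice of members did not use. It called 0 of 18193 genes (0%) at an adjusted p under 0.05, with the lowest adjusted p at 0.099, while at an unadjusted p under 0.05 there were 449 higher (2.47%) and 933 lower (5.13%). Among the genes past the signal minimum, those counts were 202 (2.13%) and 710 (7.48%). Of the members, 9 of 79 were higher and 44 of 151 lower at that unadjusted p. Without the lung arrays, the lower count was 17, beside 188 of all genes past the minimum. Slc15a2, a peptide transporter, had the lowest p of the members, with a difference of -1.09 (SE 0.17, limma adjusted p = 0.122), and was lower in all 3 tissues. Klf13, a zinc finger factor, differed by 0.98 (SE 0.19, limma adjusted p = 0.441), and was higher in all 3. Of the 39 p53 targets, 0 were higher and 6 lower at an unadjusted p under 0.05, with Cdkn1a at -0.48 (SE 0.17, limma adjusted p = 0.608).

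Most of the lower members were brighter in another tissue. The mean of the WT, p66KO and p53KO arrays of heart, lung or liver exceeded the mean of the thymus knock-out arrays by 2-fold or more for 101 of the 151 lower members (66.9%), against 19.6% of all genes past the minimum. For the higher members the share was 22.8%, near that of all genes. Of the 101, 48 were brightest in lung, 31 in liver and 22 in heart. Aldh1a1, which makes retinoic acid, was in no list and read 8.84 in WT, 9.10 in p66KO and 6.06 in p53KO thymus, with 13.58 in WT lung. Epas1, a hypoxia factor of endothelium, read 8.75, 9.38 and 7.43, with 13.51 in WT lung. Among the 107 lower members in no list, 67 were brighter elsewhere.

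Of the 107 lower members in no list, those below were named after their values were seen and stand for no group. Atp2a2, the calcium pump of heart and slow muscle, read 10.35 in WT, 10.28 in p66KO and 8.44 in p53KO thymus, and Tnnc1, the troponin of the same fibres, read 8.10, 8.29 and 6.53. Both had the p53KO array as the low one, while 2 further sets of Atp2a2 differed by -0.17 and -1.02. Cavin2 and Cav1, which shape caveolae in fat, vessel and lung cells, differed by -1.93 and -1.15, and Flt4, a receptor of lymphatic vessels, by -1.09. Ces1d, a carboxylesterase of lung, liver and fat, read 8.71, 9.38 and 6.98, and Inmt, a methyltransferase of lung, read 7.91, 8.25 and 6.05. Wfdc2, an epithelial protease inhibitor, read 11.62, 9.84 and 8.15. Pcolce, Fstl1 and Mgp, proteins of the extracellular matrix, differed by -1.19, -1.38 and -1.22. Acadl, Cpt2 and Phyh, of fatty acid oxidation, differed by -1.06, -1.05 and -1.06. Shh, a secreted patterning protein, read 9.42, 8.73 and 7.73, and Lgals1, a lectin, read 10.85, 12.42 and 11.32. The place of the WT array varied among them, from the highest of the 3 for Shh to the lowest for Lgals1.

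Of the 64 higher members in no list, those below were likewise picked by hand. Kdm6b, a histone demethylase, read 9.60 in WT, 9.80 in p66KO and 11.28 in p53KO thymus, and differed by 0.03 in heart, 0.08 in lung and 0.06 in liver. Wdr6 read 9.63, 9.82 and 11.26, and Arglu1 read 10.66, 10.85 and 12.11. On these probe sets the p53KO array alone was high, but a second set past the minimum differed by -0.05 for Kdm6b and by -0.07 for Arglu1. Pdcd4, an inhibitor of translation, read 12.31, 10.57 and 12.35, and there the p66KO array alone was low. Nup98, a nuclear pore protein, differed by 1.24, Fanci, of DNA crosslink repair, by 1.26, and Ncoa3 and Carm1, coactivators of nuclear receptors, by 1.35 and 1.06, with second sets of Nup98 and Ncoa3 at 0.01 and 0.37. Trgv1, a variable segment of the gamma T cell receptor, read 8.15, 9.04 and 10.16. Ckmt2 and Pgam2, muscle enzymes outside the list, differed by 1.98 and 1.32, and Scn4b, a sodium channel subunit, by 1.67.

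The remaining members were mostly near the threshold. Of the 79 higher members, 64 were in none of 38 gene lists, and their differences had a median of 1.26. Sco2, an assembly factor of cytochrome oxidase, differed by 1.88, with 7.07 in p66KO and 8.96 in p53KO, and Sirt6, a chromatin deacetylase, read 8.05 in WT, 6.82 in p66KO and 8.41 in p53KO. Both were named after their values were seen, and in both WT lay between the knock-outs. 4932431P20Rik differed by 2.13. Sod1, the cytosolic superoxide dismutase, read 12.39, 11.52 and 12.78, while a second set past the minimum differed by 0.55. Gpx3, the secreted glutathione peroxidase, read 10.23, 11.28 and 10.15. Alas2, of haem synthesis in red cells, read 8.36, 8.88 and 7.23. In all, 52 higher and 108 lower members differed by less than 1.5. Just inside the threshold were Cd163l1, Gzma and Ms4a15 at 1.0034, 1.0075 and 1.0079 and Ephx2, 4930523C07Rik and Togaram1 at -1.0003, -1.0016 and -1.0050, and just outside were Spata9, Tasor and Gatad1 at 0.991, 0.989 and 0.984 and Slc35a2, Eif2s3y and 9130401M01Rik at -0.9998, -0.9996 and -0.9982.

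The counts depend on how the arrays are scaled and probe sets combined. The higher members were 34.3% of all, and this share was 47.4% after repeated quantile normalization (91 higher, 101 lower), 47.6% after cyclic loess (110 and 121) and 22.9% after median centring (64 and 216). When every probe set of a gene was averaged, 43 were higher and 72 lower.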

How the data were processed

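Total RNA from thymus, heart, lung and liver was hybridised to Affymetrix Mouse Genome arrays, 1 per tissue and genotype. The authors deposited log2 signals per probe set, made in Partek 6.5 by RMA (background correction, quantile normalization and median polish). Groups came from the sample labels. No depth applies to arrays, and their number limits the precision. The members and gene lists were chosen with earlier results of these data known.

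Of 45101 probe sets, 64 were controls, 34945 had 1 gene symbol in GEO's platform annotation, 932 several and 9160 none here, and 34741 Entrez numbers matched a RefSeq table of GRCm38.p6, used for names. Of the probe sets without 1 symbol, 1825 passed the signal minimum, of which 43 were higher and 23 lower by 2-fold, and these were left out. Each of 18193 genes took its probe set with the highest mean over 12 arrays. For 1523 of them the probe set name ends in _x_at or _s_at, which marks possible binding to related RNAs. Values of the p53 transcript are not reported here.

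Within thymus, differences of the deposited log2 values were counted at 1 or more with a mean of 7 or more, with no test. Lists were described by counts and medians. limma 3.58.1 (R 4.3.3) was fitted to the 9 arrays of heart, lung and liver with tissue as a fixed block (4 residual degrees of freedom) and Benjamini-Hochberg adjustment over all genes, threshold 0.05, and was tested on simulated data. Whether the tissue pools of a genotype came from the same mice is not given, and the fit treats them as separate. Python 3.11.15 was used for the rest. Named genes were the 12 highest and 12 lowest members, members 2-fold different the same way in at least 2 other tissues, up to 4 genes past the signal minimum of each list with the largest differences, and Shc1. Other genes were named after their values were seen. Alternatives were other thresholds, signal minimums, probe set rules and scalings, and in limma the 6 knock-out arrays alone, each tissue left out, an intensity trend and repeated quantile normalization.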

Additional observations from a re-analysis of the deposited data

Results flagged for a closer look

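Members past 2-fold one way in thymus and past 2-fold the other way in another tissue were singled out, and with 1 array per group the difference between tissues was not tested. Ckmt2, mitochondrial creatine kinase of muscle, differed by 1.98 in thymus and -1.44 in lung. Myl1 differed by 3.31 in thymus and -1.44 in lung. Mylpf differed by 2.54 and -1.96, and Tnnc2 by 5.16 and -2.33, in the same tissues. All 4 are muscle genes, and each was high in p53KO thymus and low in p53KO lung. Nppa went the other way, with -5.55 in thymus and 1.66 in lung. Wfdc2, a secreted epithelial protein, differed by -1.69 in thymus and 1.23 in heart. Cebpb, a transcription factor of fat and liver, differed by -1.29 in thymus and 1.19 in liver.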

How the results depend on the processing

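The counts of higher and lower genes were 397 and 855 at 1.5-fold, 25 and 35 at 3-fold, 51 and 95 with a signal minimum of 8, and 43 and 72 with the mean of all probe sets, of which 40 and 69 were among the members. Under the other alternatives, which were signal minimums of 6 and none, other probe set choices and 3 scalings, the counts stayed within 1.5 times. The limma count outside thymus was 2 with the 6 knock-out arrays alone (Dbp and Pfn1), 1 without heart (Mtm1) and 0 otherwise, and none of the 3 was a member. A list median was called moved when it shifted by 0.25 or more. No median of the 38 lists moved under the 3 scalings or with the mean of all probe sets. Over genes with a mean signal of 7 or more, the medians were 2.08 for skeletal muscle, -0.81 for cardiomyocyte, -1.51 for airway, -1.80 for hepatocyte, -1.65 for erythroid (1 gene), 0.00 for endothelium, 0.40 for salivary gland, 0.50 for pancreas, 0.47 for thyroid and parathyroid and -0.49 for sex-linked genes. The mean in place of the median gave 1.58 for skeletal muscle, -1.26 for cardiomyocyte and -1.77 for airway. The first set of medians covers fewer and brighter genes by construction, and the cause of the shifts in either set was not tested. Of 156 named genes, repeated quantile normalization and cyclic loess turned none, and the mean of all probe sets turned Arntl (0.09), Bcl2l11 (0.16) and Ccr9 (-0.10). That mean also took 43 others below 2-fold or shifted them by 0.25 or more without a turn, against 2 under each of the other settings. No pairing by replicate number was possible because each group held 1 array, and the block in limma was the tissue. With 1 pool per group, no alternative here measures the spread between mice.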

Other observations

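Several groups of genes held no or single members. Stress and metabolic genes leaned lower in p53KO thymus without reaching 2-fold in most cases. All 18 heat shock genes past the minimum lay below 0, with Hspe1, Hspa4l and Cryab at -0.71, -0.53 and -0.51, and Hspa1b alone was past 2-fold. Of 40 oxidative phosphorylation genes, 31 lay below 0, with Ndufb2 lowest at -0.78. Interferon genes had a median of -0.30, from Ifit2 at -0.59 to Oas2 at 0.58, and antigen processing genes one of -0.13, with H2-DMa at -0.64. Unfolded protein response genes had a median of -0.18, with Dnajb9, a chaperone of the endoplasmic reticulum, at -0.79. The 18 heat shock and 40 oxidative phosphorylation genes past the minimum had medians of -0.30 and -0.22. The median over all genes past the minimum was -0.11. Of the 5047 probe sets past the minimum that were not chosen for a gene, 59.5% lay below 0.

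Myc and Egr3, immediate early genes, differed by 0.96 and 0.87 against a list median of -0.09. Of the clock genes, Cry1 read 8.39 in p66KO and 7.49 in p53KO, and the list median was -0.11. The Bcl2 family and apoptosome list had a median of -0.25, with Birc3 at -0.62. Dendritic cell, neutrophil, endothelial, nerve, mature T cell and cornified epithelium lists had medians of 0.01, 0.05, -0.30, 0.19, -0.01 and -0.04, and pancreas and thyroid lists 0.18 and 0.07. The antioxidant list had a median of -0.39, glucocorticoid and fasting genes -0.46, sterol and fatty acid synthesis -0.43, macrophage genes -0.37, erythroid genes 0.08, medullary epithelium 0.06 and ribosomal proteins 0.12.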
